A study of Mus musculus with 3 samples.

Results

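*Plvap* and the 5 genes of the caveolar coat, *Cav1*, *Cav2*, *Cavin1*, *Cavin2* and *Cavin3*, were followed in endothelial cells (ECs), EC subtypes and mural cells of 3 single-cell libraries of the mouse retina at postnatal day 6 (P6). The 6 genes were found by symbol among the 33696 gene rows of the count matrices, and all 6 had unique molecular identifiers (UMIs, each standing for 1 captured RNA molecule) in every library. One library came from wild-type (WT) mice, one from mice lacking *Tspan12* in all cells (*Tspan12* KO), and one from *Ctnnb1* flox/flox mice carrying *Pdgfb*-iCreER, in which tamoxifen given in the first days after birth deletes *Ctnnb1* in ECs (*Ctnnb1* cKO). All mice were C57BL/6, each library pooled the retinas of mice of 1 genotype, the WT mice came from other litters, and vascular cells and microglia were enriched with CD31 and CD11b beads before droplet capture. With 1 library per genotype no test between genotypes was possible, and genotype and library cannot be told apart. Values are therefore given as counts per 1000000 UMIs of the same cells (CPM) with exact 95% intervals that cover counting error only.

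Plvap is the protein of the diaphragms that span the fenestrae, caveolae and transendothelial channels of leaky vessels, and it is known to be shut off as vessels of the brain and retina form a barrier. Caveolae are flask-shaped pits of the plasma membrane. The caveolins Cav1 and Cav2 insert into the membrane as the scaffold of the pit, with Cav1 required for caveolae to form in ECs, and the cavins are cytosolic proteins that coat it, with Cavin1 essential for the coat and Cavin2 and Cavin3 joining it through Cavin1. In barrier endothelium, transport through caveolae is known to be held low, and Wnt and norrin signalling, which runs through Tspan12 and beta-catenin (*Ctnnb1*), is known to maintain the barrier state and to repress *Plvap*.

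The libraries held 9951 (WT), 14426 (*Tspan12* KO) and 9151 (*Ctnnb1* cKO) cell barcodes with 92684519, 137114957 and 37008362 UMIs, and between 21 and 37 barcodes were shared by any pair of libraries. Clustering gave 538, 283 and 2707 ECs with a median of 15785, 14754 and 3359 UMIs per cell, so the *Ctnnb1* cKO ECs were both the most numerous and the shallowest. The class joins 3 clusters that the libraries fill unequally. One, led by *Slc38a5*, held 510 WT, 198 *Tspan12* KO and 43 *Ctnnb1* cKO cells, one led by *Aqp1* and interferon-induced genes held 27, 81 and 2119, and one led by *Eln* and *Mgp* held 1, 4 and 545. All 10 endothelial markers of a fixed list had UMIs in the ECs of each library. The targeted genes do not check the labels, since UMIs mark the 3′ end of a transcript and the deleted exons are not given in the sources used here: *Tspan12* was at 95.9, 83.4 and 40.2 CPM and *Ctnnb1* at 523, 616 and 444 CPM in WT, *Tspan12* KO and *Ctnnb1* cKO ECs. In ECs the summed level of 6 erythrocyte markers was 169, 3135 and 255 CPM and that of 8 microglial markers 97.6, 90.9 and 291 CPM in the same order, and their part in the results below was not tested. RNA outside cells was measured through *Plvap* in rods, photoreceptors that should lack it, where it stood at 1.69, 3.65 and 15 CPM.

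To show where the caveolar genes start, promoters were taken from RefSeq (mouse GRCm38.p6, 250 bases before to 50 bases after the start of transcription), which held 4 of the 6 genes, *Cav1*, *Cav2*, *Cavin1* and *Cavin2*. *Cav1* and *Cav2* are neighbours on chromosome 6, with their starts on the same strand. The promoters of *Cav1*, *Cav2* and *Cavin2* are shown because *Cav1* and *Cav2* had the lowest ratio of *Ctnnb1* cKO to WT ECs among the caveolar genes, and *Cavin2* the highest. Capitals mark a GC box (GGGCGG) or a CCAAT box (CCAAT), each read on either strand.
*Cav1*, chr6:17306085-17306384, plus strand: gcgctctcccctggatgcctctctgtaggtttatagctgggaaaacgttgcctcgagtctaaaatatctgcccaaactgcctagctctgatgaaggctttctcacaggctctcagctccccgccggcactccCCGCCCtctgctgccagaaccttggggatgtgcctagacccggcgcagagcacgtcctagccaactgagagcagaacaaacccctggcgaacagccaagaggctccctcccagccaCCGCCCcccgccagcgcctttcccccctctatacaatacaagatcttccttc
*Cav2*, chr6:17280935-17281234, plus strand: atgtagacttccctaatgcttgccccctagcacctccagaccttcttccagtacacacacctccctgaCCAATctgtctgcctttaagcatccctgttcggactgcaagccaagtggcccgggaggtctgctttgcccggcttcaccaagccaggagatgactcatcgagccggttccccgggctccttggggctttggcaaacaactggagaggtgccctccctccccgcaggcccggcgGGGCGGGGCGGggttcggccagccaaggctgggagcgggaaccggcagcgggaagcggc
*Cavin2*, chr1:51288876-51289175, plus strand: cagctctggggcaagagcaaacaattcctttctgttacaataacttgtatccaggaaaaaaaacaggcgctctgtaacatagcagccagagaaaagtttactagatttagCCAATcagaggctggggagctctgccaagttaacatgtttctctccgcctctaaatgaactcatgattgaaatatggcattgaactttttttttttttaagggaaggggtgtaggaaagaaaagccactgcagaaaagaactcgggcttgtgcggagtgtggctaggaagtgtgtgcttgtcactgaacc
The *Cavin2* window was poorer in G and C (43.3%) than those of *Cav1* (59.3%), *Cav2* (64.3%) and *Cavin1* (67%), with a median of 53% over all 32544 promoters. It held no GC box, against 35.9% of all promoters with at least 1. The windows of *Cav1* and *Cav2* shown held 2 each and *Cavin1* held 1, but a second start of *Cav1* (chr6:17307390-17307689) held none. A CCAAT box was found in *Cav2*, *Cavin1* and *Cavin2* but not at either start of *Cav1*, with 37.4% of all promoters holding one. The core letters bound by TCF and LEF factors, through which beta-catenin acts (CTTTGA or CTTTGT, either strand), were in none of the windows, and 31.3% of all promoters held them. A letter match is a description of the window and says nothing of binding.

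*Plvap* (ENSMUSG00000034845) was higher in the ECs of both knockout libraries. It stood at 113 CPM in WT (interval 108 to 118, 1814 UMIs), 347 CPM in the *Tspan12* KO library (333 to 362, 2208 UMIs) and 295 CPM in *Ctnnb1* cKO (285 to 304, 3796 UMIs). The 3 intervals did not overlap, with *Tspan12* KO the highest. Against WT the log2 ratio was 1.62 (1.53 to 1.71) in the *Tspan12* KO library and 1.39 (1.30 to 1.47) in *Ctnnb1* cKO. A log2 ratio of at least 1 in the same direction was reached by 2.02% of 12193 genes in *Tspan12* KO ECs and by 8.37% of 12800 genes in *Ctnnb1* cKO ECs, with 3.99% and 12.2% past it in the other direction. *Plvap* lay above 99.6% and 95.1% of the genes in the 2 comparisons, which share the WT library.

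The caveolins followed another course. *Cav1* (ENSMUSG00000007655) was at 146 CPM in WT (140 to 152), 196 CPM in the *Tspan12* KO library (185 to 207) and 98.2 CPM in *Ctnnb1* cKO ECs (92.8 to 104). It was thus higher than WT in one knockout library and lower in the other, with log2 ratios of 0.43 (0.33 to 0.52) and -0.57 (-0.67 to -0.47). *Cav2* (ENSMUSG00000000058), which needs Cav1 to reach the membrane, was at 46.8 CPM in WT (43.5 to 50.3), 51.8 CPM in the *Tspan12* KO library (46.3 to 57.7) and 30.6 CPM in *Ctnnb1* cKO (27.6 to 33.8). Its log2 ratio was 0.15 in the *Tspan12* KO library, with an interval from -0.05 to 0.33 that spans 0, and -0.61 (-0.79 to -0.44) in *Ctnnb1* cKO. The lower *Cav1* and *Cav2* in *Ctnnb1* cKO depended on the choice of cells. With ECs picked by marker UMIs from any cluster, *Cav1* was at 87.9 CPM in WT and 87.6 CPM in *Ctnnb1* cKO. *Cav2* was then at 28.2 and 27.6 CPM. That selection took 1066 WT, 352 *Tspan12* KO and 2754 *Ctnnb1* cKO cells, against 538, 283 and 2707 in the EC class. In WT it also lowered *Plvap* from 113 to 69.6 CPM and *Cavin3* from 371 to 217 CPM. In *Ctnnb1* cKO they went from 295 to 265 CPM and from 309 to 275 CPM. The cause was not tested. The number of *Cav1* UMIs per *Cav2* UMI in the pooled ECs was 3.12, 3.79 and 3.21 in WT, *Tspan12* KO and *Ctnnb1* cKO. In the subtypes described below it was 3.42, 7.08 and 2.45 in arterial-like and 3.55, 5.1 and 4.9 in capillary-like ECs. It was 2.24, 3.77 and 3.29 in tip-like and 3.07, 3.74 and 3.04 in proliferative-like ECs. The value of 7.08 rests on 12 *Cav2* UMIs.

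The 3 cavins each behaved differently. *Cavin1* (ENSMUSG00000004044) resembled *Cav1*, at 114 CPM in WT (109 to 120), 158 CPM in the *Tspan12* KO library (148 to 168) and 96.1 CPM in *Ctnnb1* cKO (90.8 to 102). *Cavin2* (ENSMUSG00000045954) was at 45.9 CPM in WT (42.6 to 49.3), 61.8 CPM in the *Tspan12* KO library (55.9 to 68.3) and 135 CPM in *Ctnnb1* cKO (129 to 141). It was the caveolar gene past a log2 ratio of 1, with 1.56 (1.43 to 1.68) in *Ctnnb1* cKO and 0.43 (0.25 to 0.61) in *Tspan12* KO. *Cavin3* (ENSMUSG00000037060), the most abundant of the caveolar genes in each library, was at 371 CPM in WT (361 to 380), 334 CPM in the *Tspan12* KO library (320 to 348) and 309 CPM in *Ctnnb1* cKO (299 to 319), slightly below WT in both knockout libraries. Summed over the 5 caveolar genes these shifts nearly balanced, with 724, 801 and 669 CPM and log2 ratios of 0.15 (0.10 to 0.19) and -0.12 (-0.16 to -0.07). The sign of the summed ratio in *Ctnnb1* cKO turned with the scaling, being 0.01 with TMM factors, which scale libraries so that most genes are level, and 0.02 as a mean over single cells, and leaving out cycling cells gave 0.19. Leaving out cycling cells also turned *Cavin1* and *Cavin3* in *Ctnnb1* cKO to 0.05 and 0.07, from -0.25 and -0.26, and picking ECs by marker UMIs gave 0.39 and 0.35, with 0.48 for the sum.

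**Figure D1:**
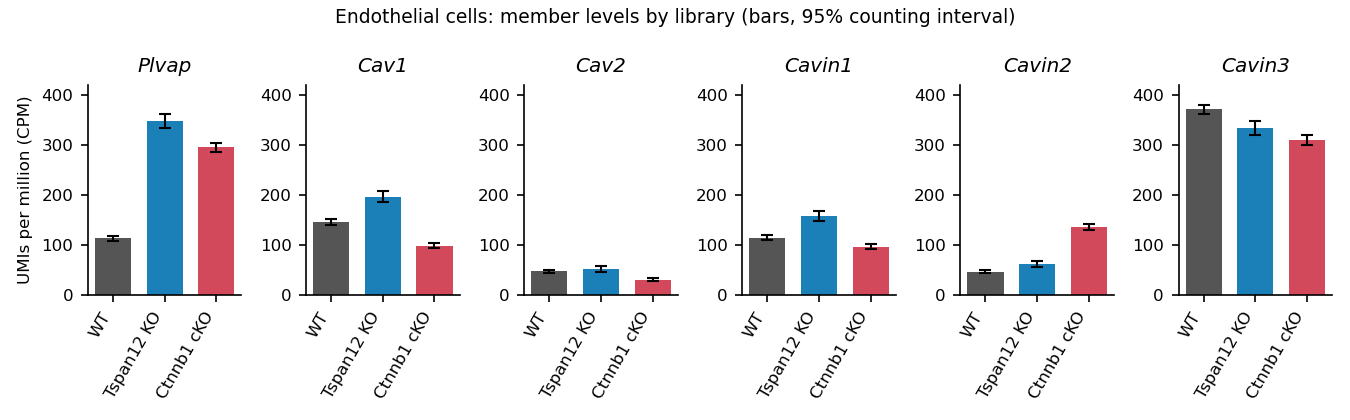
Level of each of the 6 genes in ECs by library, as counts per 1000000 UMIs (CPM, vertical axis from 0); bars give the summed level of 1 library each and whiskers the exact 95% counting interval. *Plvap* was higher in both knockout libraries (347 and 295 against 113 CPM), while *Cavin2* was highest in *Ctnnb1* cKO (135 CPM) and *Cav1* lowest there (98.2 CPM).

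Because a UMI marks 1 transcript end whatever the transcript length, levels of the 6 genes may also be ranked within a library. In WT ECs the order was *Cavin3*, *Cav1*, *Cavin1*, *Plvap*, *Cav2* and *Cavin2*, where the intervals of *Cavin1* and *Plvap* overlapped, as did those of *Cav2* and *Cavin2*. In *Tspan12* KO ECs *Plvap* came first with *Cavin3* within its interval, and in *Ctnnb1* cKO ECs *Cavin3* and *Plvap* again overlapped while *Cavin2* had moved above *Cav1*, *Cavin1* and *Cav2*. For every 100 caveolar UMIs there were 15.6 *Plvap* UMIs in WT (14.8 to 16.4), 43.3 in the *Tspan12* KO library (41.2 to 45.6) and 44.1 in *Ctnnb1* cKO ECs (42.4 to 45.8). The intervals of the knockout libraries overlapped in the pooled ECs, while the subtypes described below differed in this. In proliferative-like ECs *Tspan12* KO and *Ctnnb1* cKO were at 44.4 (41.4 to 47.6) and 29.6 (26.8 to 32.6), without overlap. In arterial-like ECs they were at 30.2 (22.9 to 39.3) and 8.02 (6.07 to 10.4), again without overlap. The intervals did overlap in capillary-like ECs, at 30.4 (26 to 35.5) and 28.3 (24.4 to 32.8). Those of tip-like ECs overlapped as well, at 38.3 (31.3 to 46.7) and 27.8 (24.1 to 32).

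Other genes around the caveola were read from fixed lists, against the shares of all genes given above. Of 18 caveola accessory genes, 13 had at least 50 UMIs in *Tspan12* KO and WT ECs together and 1 was past a log2 ratio of 1 upward and 0 downward, with a median of 0.26 against 0.02 over all genes, of which 2.02% were past it upward. In *Ctnnb1* cKO 15 were measured, 2 past it upward and 1 downward, with a median of 0.21 against -0.12 over all genes, of which 8.37% and 12.2% were past it. *Ehd4* was at 90.5, 149 and 174 CPM in WT, *Tspan12* KO and *Ctnnb1* cKO (log2 ratios 0.72 and 0.94), *Flot2* at 10.1, 18.6 and 15.9 CPM (0.88 and 0.66) and *Ror1* at 13.8, 7.39 and 5.59 CPM (-0.90 and -1.30), these 3 named after their values were seen. *Ehd3*, a membrane-remodelling ATPase related to the caveolar neck protein Ehd2, was past it in both libraries, at 3.92, 8.02 and 9.55 CPM in WT, *Tspan12* KO and *Ctnnb1* cKO (log2 ratios 1.04, interval 0.47 to 1.59, and 1.29, 0.84 to 1.75).

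Among 20 genes of endothelial vesicle transport, 19 were measured, with 1 upward and 2 downward in *Tspan12* KO and 2 upward and 5 downward in *Ctnnb1* cKO (medians -0.02 and -0.40). Over all genes 2.02% and 8.37% were past it upward, 3.99% and 12.2% downward, and the medians were 0.02 and -0.12. *Tfrc*, the transferrin receptor, was at 151 CPM in WT, 42.0 CPM in the *Tspan12* KO library and 20.3 CPM in *Ctnnb1* cKO (log2 ratios -1.85 and -2.89). *Mfsd2a*, a lipid transporter known to hold down caveolar transport in barrier vessels, was at 175, 84.3 and 80.2 CPM (-1.05 and -1.13). *Gpihbp1*, the capillary anchor of lipoprotein lipase, went the other way, at 25.4, 70.5 and 108 CPM (1.48 and 2.09). The transporter *Mfsd2a* and the receptor *Tfrc* were thus lower in both knockout libraries in which *Plvap* was higher.

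In the list of 20 barrier endothelium genes, 6 were past a log2 ratio of 1 downward in *Tspan12* KO and 9 in *Ctnnb1* cKO, with 0 upward in either (medians -0.20 and -0.64), where 3.99% and 12.2% of all genes were past it downward. Those past it in both libraries included *Slc38a5*, *Slc16a1*, *Itm2a*, *Tfrc* and *Mfsd2a*. *Slc38a5*, an amino acid transporter of retinal vessels, was at 320, 36.0 and 42.4 CPM, and *Slc16a1*, a monocarboxylate transporter, at 26.3, 5.03 and 3.03 CPM in WT, *Tspan12* KO and *Ctnnb1* cKO. *Itm2a*, a membrane protein enriched in barrier ECs, was at 857, 324 and 156 CPM. Not every gene of the list was lower, since *Slc2a1*, the glucose transporter of barrier vessels, was at 642, 864 and 967 CPM. Of 9 marker genes of vessels without a barrier, used to describe clusters, 6 were measured in *Tspan12* KO and 7 in *Ctnnb1* cKO, with 4 and 5 past a log2 ratio of 1 upward and 0 downward (medians 1.30 and 1.69). Besides *Gpihbp1*, those past it in both were *Aqp1*, a water channel, at 3.98, 85.3 and 208 CPM in WT, *Tspan12* KO and *Ctnnb1* cKO, *Col15a1*, a basement membrane collagen, at 140, 313 and 376 CPM, and *Exoc3l2*, related to a subunit of the exocyst, at 17.4, 47.2 and 56.3 CPM. The barrier and transport lists overlap in *Tfrc* and *Mfsd2a*.

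ECs were next split into 9 subclusters without using the 6 genes or the caveola accessory, vesicle transport and barrier lists. The markers of vessels without a barrier were not left out. Names came from fixed markers, and those of capillary ECs include *Mfsd2a*, *Tfrc*, *Slc7a5* and *Slc16a1* of the lists above. By these markers 4 subclusters were arterial-like (49, 22 and 298 cells in WT, *Tspan12* KO and *Ctnnb1* cKO), capillary-like (183, 56 and 352), tip-like (35, 24 and 355) and proliferative-like (146, 72 and 383). The others are called by their leading genes. Of these the *Mgp*/*Eln* cluster (2, 1 and 355 cells) and the *Rasd1*/*Depp1* cluster (0, 5 and 194 cells), which passed 4 and 3 of 9 markers of vessels without a barrier, came almost wholly from *Ctnnb1* cKO, so that what is particular to these cells and to that library cannot be told apart. No subcluster was named venous. The *Hbb-bs*/*Hba-a1* cluster (64, 39 and 27 cells) was led by haemoglobin and rod genes, and leaving it out kept each EC ratio of the 6 genes within its interval.

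*Plvap* was higher in *Tspan12* KO than in WT in each of the 4 named subtypes. In arterial-like ECs, which line the inflow vessels, it was at 152 CPM in WT (131 to 176) and 302 CPM in *Tspan12* KO (237 to 380). In capillary-like ECs it was at 77.2 CPM (69.2 to 85.8) and 231 CPM (201 to 264). In tip-like ECs, the cells that lead vessel sprouts, it was at 133 CPM (114 to 154) and 385 CPM (324 to 455), and in proliferative-like ECs at 126 CPM (118 to 134) and 398 CPM (376 to 422). The log2 ratios lay between 0.99 (0.58 to 1.39) in arterial-like and 1.66 (1.54 to 1.79) in proliferative-like ECs, and the interval of the former overlapped those of capillary-like (1.33 to 1.83) and tip-like ECs (1.20 to 1.87) but not that of proliferative-like ECs. Within WT the capillary-like cells held the least *Plvap*, below the intervals of the other 3 subtypes, which overlapped one another.

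In *Ctnnb1* cKO the *Plvap* ratio to WT was smaller than in *Tspan12* KO in 3 of the named subtypes and below 0 in the other. *Plvap* was at 147 CPM in capillary-like (128 to 166), 182 CPM in tip-like (160 to 205) and 184 CPM in proliferative-like ECs (169 to 201), with log2 ratios against WT of 0.92 (0.68 to 1.17), 0.45 (0.16 to 0.74) and 0.55 (0.39 to 0.71). In arterial-like ECs it was lower than in WT, at 65.5 CPM (50.1 to 84.1), with a log2 ratio of -1.21 (-1.66 to -0.79). That arterial value depended on how the subtype was drawn, since it was -0.19 when clusters were made without centring each library and -0.40 when each cell was assigned by its marker values. Compared directly at matched subtype, *Ctnnb1* cKO was below *Tspan12* KO by log2 ratios of -2.21 (-2.72 to -1.69) in arterial-like, -0.66 (-0.93 to -0.38) in capillary-like, -1.09 (-1.39 to -0.78) in tip-like and -1.11 (-1.26 to -0.96) in proliferative-like ECs.

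A large part of the *Plvap* of *Ctnnb1* cKO ECs came from 2 subclusters. The *Mgp*/*Eln* cluster, led by genes of the elastic matrix, was at 781 CPM (736 to 828) and the *Rasd1*/*Depp1* cluster at 783 CPM (729 to 839). They held 11.0% and 7.95% of the EC UMIs of that library but 29.3% and 21.1% of its *Plvap* UMIs. Without both, the log2 ratio of *Ctnnb1* cKO to WT was 0.68 in place of 1.39, and with equal weight on the 4 named subtypes it was 0.24, whereas in *Tspan12* KO the same changes gave 1.56 and 1.43. The 5 cells of the *Rasd1*/*Depp1* cluster in *Tspan12* KO held 6.16% of the *Plvap* UMIs of its ECs. The *Zbp1*/*Cd74* cluster, led by interferon-induced and antigen-presentation genes, was at 112 CPM in WT, 438 CPM in the *Tspan12* KO library and 305 CPM in *Ctnnb1* cKO. The *Slco1a4*/*Six3os1* cluster was at 246 CPM in *Tspan12* KO (220 to 273) and 180 CPM in *Ctnnb1* cKO (163 to 198).

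**Figure D2:**
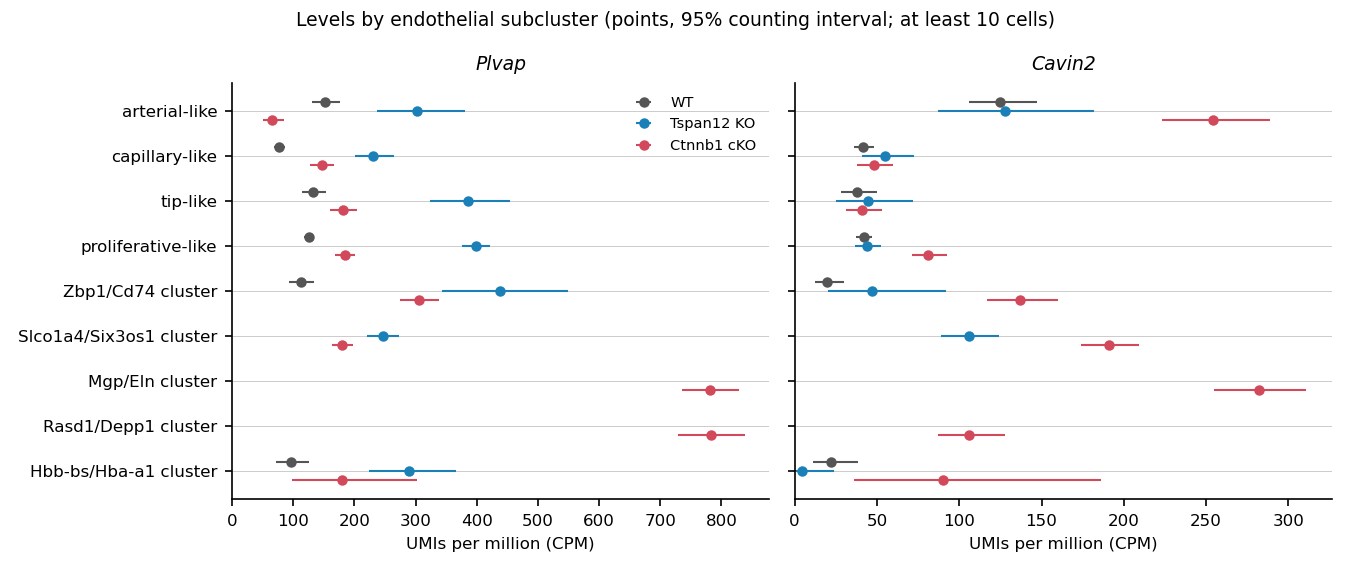
Levels of *Plvap* (left) and *Cavin2* (right) in CPM (horizontal axes from 0) for each EC subcluster with at least 10 cells in the library; points are 1 library each, coloured by genotype, with exact 95% counting intervals. *Plvap* reached 781 and 783 CPM in the *Mgp*/*Eln* and *Rasd1*/*Depp1* clusters of *Ctnnb1* cKO, and *Cavin2* reached 254 CPM in arterial-like cells and 282 CPM in the *Mgp*/*Eln* cluster of the same library.

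*Cav1* was an arterial-leaning gene in WT, at 266 CPM in arterial-like (237 to 297), 195 CPM in tip-like (172 to 221), 143 CPM in proliferative-like (134 to 152) and 113 CPM in capillary-like ECs (103 to 123), with no overlap between neighbours in this order. In *Tspan12* KO it was higher than WT in capillary-like ECs, at 231 CPM (log2 ratio 1.03, 0.79 to 1.27), in proliferative-like ECs, at 204 CPM (0.51, 0.37 to 0.66), and in arterial-like ECs, at 352 CPM (0.40, 0.04 to 0.75). In *Ctnnb1* cKO the arterial lead was gone, with 87.0 CPM in arterial-like (69.1 to 108), 99.4 CPM in tip-like (83.5 to 117) and 122 CPM in capillary-like ECs (106 to 141). The log2 ratios to WT were -1.61 (-1.98 to -1.26) in arterial-like, -0.98 (-1.29 to -0.67) in tip-like and -0.81 (-1.02 to -0.60) in proliferative-like ECs, but 0.12 (-0.13 to 0.36) in capillary-like ECs.

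*Cav2* and *Cavin1* went much as *Cav1* did. *Cav2* was highest in WT tip-like (87.3 CPM, 72.0 to 105) and arterial-like ECs (77.7 CPM, 62.6 to 95.2) and was at 24.9 to 35.4 CPM in all 4 named subtypes of *Ctnnb1* cKO. Its log2 ratio there was -1.53 (-2.08 to -1.01) in tip-like and -1.13 (-1.75 to -0.54) in arterial-like ECs. *Cavin1* was highest in WT tip-like ECs (176 CPM, 154 to 201), was higher in *Tspan12* KO than in WT in proliferative-like (log2 ratio 0.79, 0.63 to 0.95) and capillary-like ECs (0.77, 0.49 to 1.04), and in *Ctnnb1* cKO ranged from -0.72 (-1.14 to -0.31) in arterial-like to 0.10 (-0.17 to 0.36) in capillary-like ECs. Capillary-like ECs of *Ctnnb1* cKO were thus the named subtype in which the intervals of all 5 caveolar genes spanned 0.

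*Cavin2* differed from the rest by subtype as well as by library. In WT it was at 125 CPM in arterial-like ECs (106 to 147) and at 37.9 to 42.0 CPM in tip-like, capillary-like and proliferative-like ECs. In *Tspan12* KO the 4 values, 128, 55.0, 44.4 and 44.2 CPM in arterial-like, capillary-like, tip-like and proliferative-like ECs, all gave log2 ratios whose intervals spanned 0. In *Ctnnb1* cKO it was at 254 CPM in arterial-like (223 to 289) and 81.2 CPM in proliferative-like ECs (71.1 to 92.3), with log2 ratios of 1.03 (0.72 to 1.33) and 0.95 (0.70 to 1.20), while capillary-like (0.20, -0.20 to 0.59) and tip-like ECs (0.12, -0.46 to 0.70) showed no difference beyond counting error. With each cell assigned by marker values instead, capillary-like and tip-like ECs of *Ctnnb1* cKO were at 1.52 and 2.14, and capillary-like ECs of *Tspan12* KO at 1.01. The arterial-like cells of *Ctnnb1* cKO thus held less *Plvap*, *Cav1*, *Cav2* and *Cavin1* and more *Cavin2* than those of WT, although for *Cavin2* the log2 ratio was 0.26 without centring. Outside the named subtypes *Cavin2* was at 282 CPM in the *Mgp*/*Eln* cluster (255 to 311), 191 CPM in the *Slco1a4*/*Six3os1* cluster (174 to 209) and 137 CPM in the *Zbp1*/*Cd74* cluster (117 to 160) of *Ctnnb1* cKO, the last against 19.8 CPM in WT (12.4 to 29.9). In *Tspan12* KO the *Slco1a4*/*Six3os1* cluster also held much *Cavin2*, with 37.4% of the *Cavin2* UMIs of ECs in 21.9% of all their UMIs. *Cavin2* gave 19.5% of the caveolar UMIs of that cluster.

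*Cavin3* differed little between libraries. Its level in WT was 514 CPM in tip-like (475 to 554), 416 CPM in proliferative-like (401 to 431), 370 CPM in arterial-like (336 to 406) and 240 CPM in capillary-like ECs (225 to 254). In *Tspan12* KO all 4 intervals of the log2 ratio spanned 0, and in *Ctnnb1* cKO the ratio was lower in tip-like (-0.51, -0.68 to -0.34) and proliferative-like ECs (-0.28, -0.38 to -0.17).

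**Figure D3:**
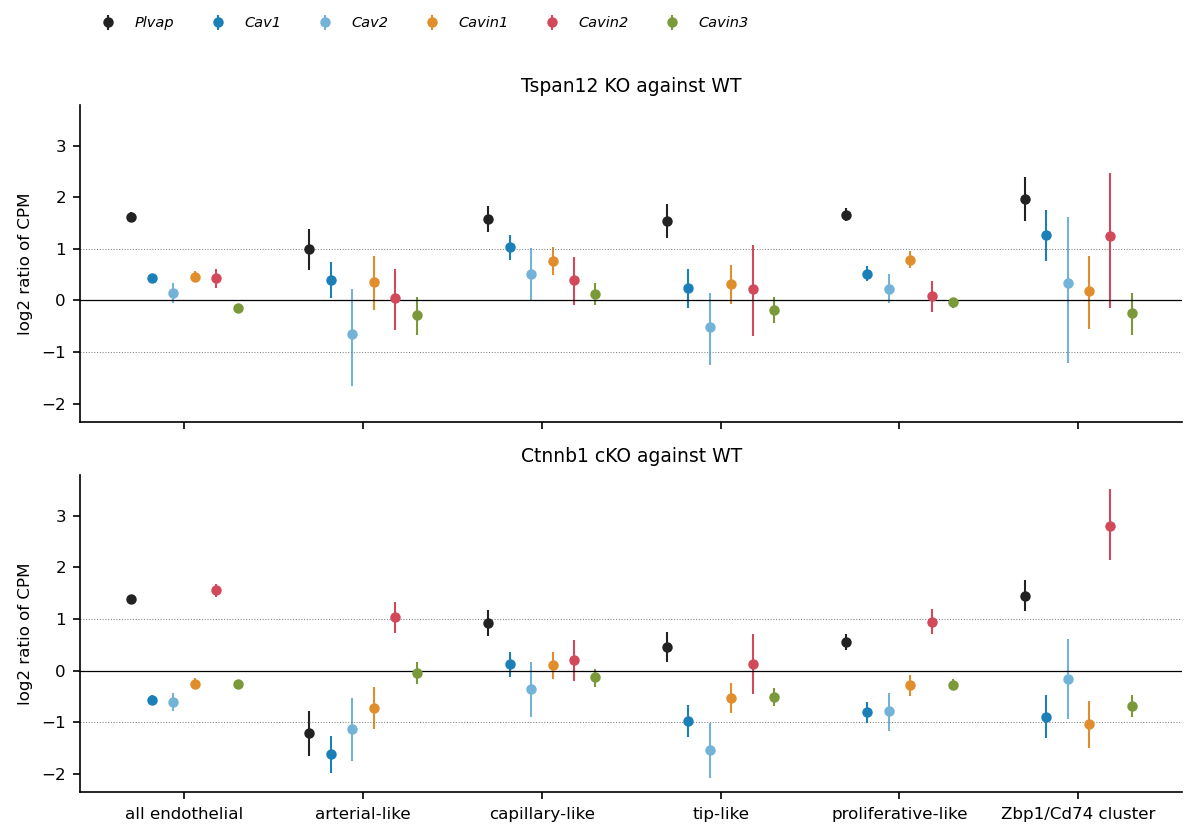
Log2 ratio of each gene's CPM in *Tspan12* KO (top) and *Ctnnb1* cKO (bottom) to WT, in all ECs, the 4 named subtypes and the *Zbp1*/*Cd74* cluster; points are ratios of 1 library to 1 library with exact 95% counting intervals, and dotted lines mark -1 and 1. *Plvap* lay above 0 throughout in *Tspan12* KO but was at -1.21 in arterial-like ECs of *Ctnnb1* cKO, where *Cavin2* stood at 1.03.

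The make-up of the caveolar UMIs shifted accordingly. *Cavin3* gave 51.2% of them in WT ECs (50.3% to 52.1%), 41.7% in the *Tspan12* KO library (40.3% to 43.0%) and 46.2% in *Ctnnb1* cKO (45.1% to 47.3%). In *Tspan12* KO the room was taken by *Cav1* (24.5% against 20.2% in WT) and *Cavin1* (19.7% against 15.8%). In *Ctnnb1* cKO it was taken by *Cavin2*, which gave 20.2% (19.3% to 21.0%) against 6.33% in WT (5.90% to 6.79%), while *Cav1* gave 14.7% and *Cav2* 4.57% (6.46% in WT). In arterial-like ECs *Cavin2* gave 12.9% of the caveolar UMIs in WT, 12.8% in the *Tspan12* KO library and 31.1% in *Ctnnb1* cKO, and *Cav1* gave 27.4%, 35.1% and 10.6%. In the *Mgp*/*Eln* cluster *Cavin2* gave 33.5% (30.8% to 36.2%), close to *Cavin3* at 31.3%.

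**Figure D4:**
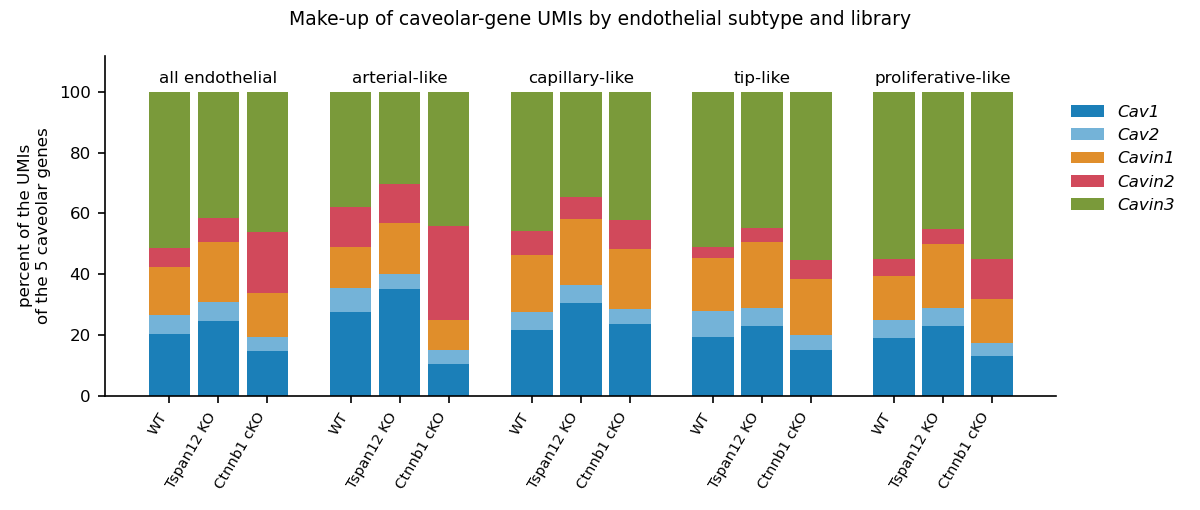
Percent of the UMIs of the 5 caveolar genes that each gene gave (stacked bars, vertical axis in percent), for all ECs and the 4 named subtypes in each library. *Cavin2* took 20.2% of the caveolar UMIs in all ECs and 31.1% in arterial-like ECs of *Ctnnb1* cKO, against 6.33% and 12.9% in WT.

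To compare the share of cells with *Plvap* at equal depth, each cell was thinned to 2000 UMIs. This left out 18 WT, 24 *Tspan12* KO and 820 *Ctnnb1* cKO ECs. A *Plvap* UMI was then found in 17.3% of WT ECs (90 of 520, 14.2% to 20.8%), 39.8% of *Tspan12* KO ECs (103 of 259, 33.8% to 46.0%) and 35.0% of *Ctnnb1* cKO ECs (661 of 1887, 32.9% to 37.2%), while without thinning the shares were 65.4%, 74.9% and 46.7%. In rods thinned in the same way the shares were 0.493%, 0.680% and 2.79%. At least 3 *Plvap* UMIs were found in 0.192% of WT (1 cell), 6.95% of *Tspan12* KO (18 cells) and 5.56% of *Ctnnb1* cKO ECs (105 cells). Both the share of cells with a UMI and the share with several were higher in the knockout libraries. Most thinned cells held no *Plvap* UMI, so more RNA in each cell would by itself raise both shares. The shares therefore cannot tell more cells with *Plvap* from more *Plvap* RNA per cell. *Cavin2* was found in 7.88%, 9.65% and 20.5% of thinned ECs, and *Cav1* in 24.0%, 29.3% and 17.3%, in the order of their CPM.

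Within a library the caveolar genes were found somewhat more often in cells with a *Plvap* UMI in 13 of 15 comparisons of 5 genes in 3 libraries. The same cells served all 5 genes of a library, and no such share was computed over all genes. The count is therefore not read as a trait of the caveolar genes, and the differences were not tested. In WT *Cav1* was in 25.6% of ECs with *Plvap* (16.9% to 35.8%) and 23.7% of those without (19.8% to 28.0%), and in *Tspan12* KO in 31.1% and 28.2%. In *Ctnnb1* cKO, with the most cells, *Cav1* was in 19.2% (16.3% to 22.4%) and 16.2% (14.2% to 18.4%), and *Cavin2* in 23.3% (20.1% to 26.7%) and 18.9% (16.8% to 21.2%), with overlapping intervals. The intervals of the cells with and without *Plvap* overlapped in each of the 15, which does not show that the rates were the same.

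Mural cells, the pericytes and smooth muscle cells that wrap vessels and that carry caveolae themselves, were fewer. One cluster was named pericyte-like, with 13 cells in WT, 62 in the *Tspan12* KO library and 86 in *Ctnnb1* cKO, and none was named smooth muscle. All 10 pericyte markers had UMIs in it in each library, at a summed 4419, 5189 and 5645 CPM, but so did all 10 endothelial markers, at 6729, 5937 and 4814 CPM. Each endothelial marker stood at 51.4% to 84.4% of its EC level in WT, 52.5% to 76.9% in the *Tspan12* KO library and 40.5% to 85.4% in *Ctnnb1* cKO. Only 9 of the cells, all in *Ctnnb1* cKO, had no UMI of any endothelial marker. The cluster therefore held endothelial RNA in nearly every cell.

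In that cluster *Plvap* was at 61.4 CPM in WT (36 UMIs, 43.0 to 84.9), 279 CPM in the *Tspan12* KO library (359 UMIs, 251 to 310) and 459 CPM in *Ctnnb1* cKO (201 UMIs, 398 to 527), which were 54.4%, 80.4% and 156% of the EC level. *Cav1* was at 107, 150 and 45.7 CPM, *Cavin1* at 119, 143 and 91.4 CPM, and *Cavin2* at 56.2, 49.8 and 107 CPM in WT, *Tspan12* KO and *Ctnnb1* cKO. *Cav2* was at 30.7, 42.8 and 18.3 CPM and *Cavin3* at 278, 190 and 231 CPM. The *Cavin3* interval of *Tspan12* KO (167 to 215) lay below that of WT (237 to 324), while that of *Ctnnb1* cKO (188 to 280) overlapped it. For *Cavin2* the intervals of *Tspan12* KO (38.3 to 63.6) and, narrowly, *Ctnnb1* cKO (78.9 to 143) overlapped that of WT (38.7 to 79). Against WT the *Cav1* log2 ratios were 0.48 (0.07 to 0.92) and -1.23 (-2.04 to -0.49), whereas both intervals spanned 0 for *Cav2* (-0.31 to 1.34 and -2.16 to 0.53) and *Cavin1* (-0.14 to 0.68 and -0.98 to 0.20). Log2 ratios to WT for *Plvap* were 2.19 (1.69 to 2.72) and 2.90 (2.39 to 3.46), each resting on the 36 UMIs of the 13 WT cells. After thinning, 0 of 13 WT cells held *Plvap*, which allows a share of up to 23.1%, so no share could be compared with WT.

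Of the 86 *Ctnnb1* cKO cells of the cluster, the 9 with no UMI of an endothelial marker held 0 *Plvap* UMIs in 13267 UMIs, which allows up to 226 CPM, below the 459 CPM of the whole cluster and the 295 CPM of ECs. These 9 cells were shallow, with a median of 1067 UMIs against 3146 in the cluster, and *Cavin2* was also at 0, where the same limit lies above the 107 CPM of the cluster. The part of endothelial RNA in the other values of the cluster was not tested.

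**Figure D5:**
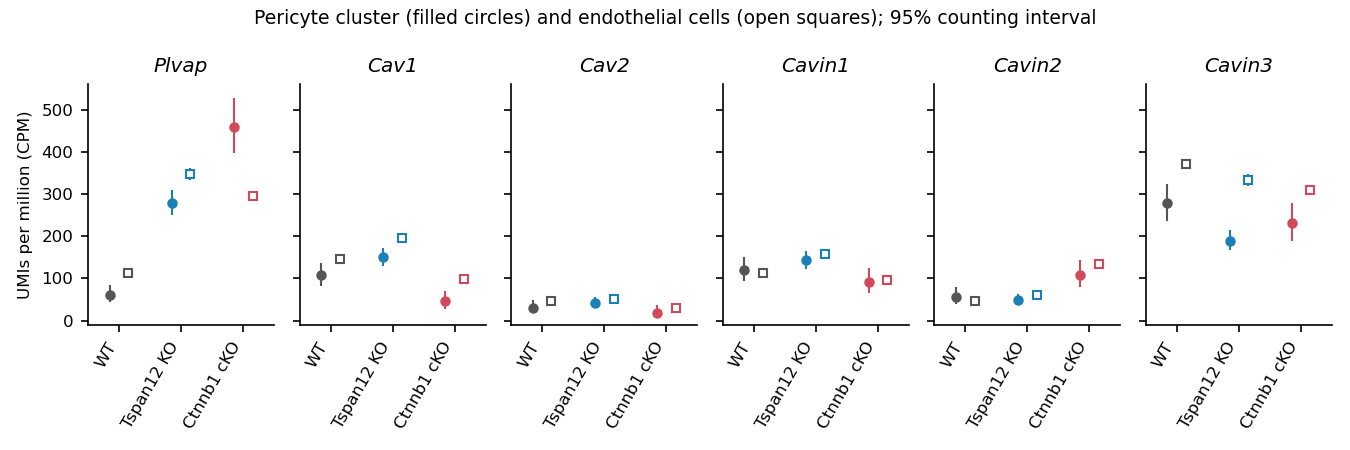
Level of each gene in CPM (vertical axis) in the pericyte cluster (filled circles) and in ECs (open squares), by library, with exact 95% counting intervals. *Plvap* in the cluster was at 61.4, 279 and 459 CPM in WT, *Tspan12* KO and *Ctnnb1* cKO, against 113, 347 and 295 CPM in ECs.

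Outside vessels the 6 genes were mostly low, with *Cavin3* the main exception. *Plvap* was at 2.23, 4.15 and 14.5 CPM in microglia of WT, *Tspan12* KO and *Ctnnb1* cKO, close to its level in rods, and was highest in *Ctnnb1* cKO in both. The libraries filled different clusters of these classes, with 954 of 978 WT rods in one cluster and 1701 of 1746 *Ctnnb1* cKO rods in another that had no rod marker among its 10 leading genes, and 1853 of 2116 *Ctnnb1* cKO microglia in a cluster with 12 of 287 from WT. *Cavin3* was at 110 CPM in the 21 WT astrocytes (66.1 to 172). In cells named retinal pigment epithelium-like it was at 115 CPM in *Tspan12* KO (90.0 to 145) and 96.3 CPM in *Ctnnb1* cKO (68.8 to 131). In retinal progenitors it was at 37.3, 29.8 and 38.9 CPM. These levels lay above the 9.02, 6.86 and 25.0 CPM of rods. The retinal pigment epithelium-like cluster had 1 of that list's markers among its 10 leading genes. With doublets kept, or at 2000 UMIs per cell, a cluster sharing many of its leading genes went unnamed.

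Over 55 sums of UMIs, each 1 cell class or EC subcluster in 1 library, the genes whose log2 level was most like that of *Plvap* were *Hspg2* (Pearson r 0.96) and *Cdh5*, *Emcn* and *Emp1* (0.95), with *Esam* at 0.94. For *Cav1* they were *Esam*, *Cdh5*, *Myct1* and *Emp1* (0.97) and *Tamalin* (0.96), and *Cav1* and *Plvap* were at 0.93 with each other. These values are set mainly by the contrast of ECs with other cells and are given as a description, since the sums share libraries and depth. Over the 23 EC subcluster sums alone, r between *Plvap* and the caveolar genes was 0.41 for *Cav1*, 0.30 for *Cavin1*, 0.24 for *Cav2*, 0.20 for *Cavin2* and 0.07 for *Cavin3*, and the genes most like *Plvap* were *Ramp3* (0.90), *Tnfrsf1a* (0.89), *Jup* and *Emcn* (0.86) and *Tprgl* (0.84). *Cav1* was at 0.79 with *Cavin1*, 0.70 with *Cav2*, 0.34 with *Cavin3* and -0.14 with *Cavin2*, and its nearest genes were *Tlnrd1* (0.82), *Ero1a* (0.80), *B3gnt3* and *Cavin1* (0.79) and *Uap1* (0.78). Over these 23 sums r of *Plvap* with a caveolar gene was thus at most 0.41, and r of *Cavin2* with the other coat genes lay between -0.46 and -0.06. Counting error in the smaller sums was not allowed for, and no r over all genes was set beside these values.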

How the data were processed

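The authors deposited filtered UMI counts per gene and cell for 3 libraries, 1 per genotype, made with 10x 3′ chemistry. Per the file headers Cell Ranger 8.0.1 was used, and the submitters' processing notes name GRCm39, while the methods name another version and build. The 6 genes, the lists and the rules were chosen with earlier results of these data known. Barcodes entered the analysis with no fewer than 250 genes, 500 UMIs and no more than 15% mitochondrial UMIs. Predicted doublets were taken out at 0.8% per 1000 cells. Cells of all libraries were clustered with scanpy 1.11.5 (2000 variable genes without the 6 genes, 30 components, Leiden resolution 1), without centring each library. ECs were clustered again without 62 genes, namely the 6 genes and the caveola accessory, vesicle transport and barrier lists, after centring each library. Clusters were named from markers. UMIs were summed per library and class. Intervals are exact Poisson (levels), conditional binomial (ratios) and Clopper-Pearson (shares), at 95%. Genes with at least 50 UMIs in both libraries together were compared, called at a log2 ratio of 1. A count of 0 was given a limit of 3 counts. The named genes were the 6 genes, those of the lists past a log2 ratio of 1 in both comparisons (at most 8 a list), and for *Plvap* and *Cav1* the 5 genes with the highest Pearson r of log2(CPM + 5); *Slc2a1* was added after its values were seen. Alternatives were TMM scaling (edgeR 4.0.16), other cell filters, gates, weights and thinning. The ratio step was tested on simulated data. One gene of the barrier list and one marker-based selection of pericytes are not reported here.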

Additional observations from a re-analysis of the deposited data

Results flagged for a closer look

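The *Plvap* log2 ratio of *Ctnnb1* cKO to WT went in opposite directions between cell groups. It was -1.21 in arterial-like ECs, but 0.92 in capillary-like, 0.45 in tip-like and 0.55 in proliferative-like ECs and 2.90 in the pericyte cluster. The difference between these groups was not tested, since each genotype had 1 library. The arterial-like value rests on 61 *Plvap* UMIs in *Ctnnb1* cKO and 180 in WT, and the pericyte value on 36 UMIs in WT. Without centring, or with cells assigned by marker values, the arterial-like value kept its sign but was much smaller, as given above. The pericyte cluster held endothelial RNA in nearly every cell, so it is not a group free of ECs.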

How the results depend on the processing

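Of 168 endothelial log2 ratios over all alternatives, 103 stayed within the counting interval of the reported value, 56 moved out of it and 9 changed sign, against 66, 3 and 1 of 70 in pericytes and 136, 31 and 1 of 168 in the named subtypes. Shares of cells with a UMI under other thinning depths or none stayed within the interval in 29 and moved in 79 of 108. *Plvap* stayed higher than WT in ECs of both knockout libraries in every alternative run. In *Tspan12* KO ECs *Plvap* was at 1.84 without cycling cells and 1.42 as a mean over cells, and the caveolar sum at 0.27 with ECs picked by marker UMIs and 0.24 without cycling cells. In *Ctnnb1* cKO ECs *Plvap* was at 1.51 with TMM scaling, 1.93 by marker UMIs, 1.95 without cycling cells and 1.28 as a mean over cells, and the caveolar sum at 0.01, 0.48, 0.19 and 0.02 in the same order. *Cavin1* and *Cavin3* there changed sign to 0.39 and 0.35 by marker UMIs and to 0.05 and 0.07 without cycling cells. Cycling cells were called from at least 3 UMIs of cycle genes, so the call depends on depth. The pick of ECs by marker UMIs needs at least 3 endothelial markers with a UMI, so it also depends on depth.

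The following were chosen after seeing the data. Without the *Mgp*/*Eln* and *Rasd1*/*Depp1* clusters *Plvap* was at 0.68 and the caveolar sum at -0.25 in *Ctnnb1* cKO. Without the *Zbp1*/*Cd74* and *Slco1a4*/*Six3os1* clusters *Plvap* was at 1.73 and 1.51 and the sum at 0.26 and -0.04 in *Tspan12* KO and *Ctnnb1* cKO, and *Cavin3* in *Tspan12* KO changed sign to 0.02. With equal weights for the 4 named subtypes *Plvap* was at 1.43 and 0.24, and the sum in *Ctnnb1* cKO at -0.32. Cells of any cluster with at least 3 pericyte markers and no *Cldn5* or *Cdh5* UMI numbered 17, 108 and 44 in WT, *Tspan12* KO and *Ctnnb1* cKO and held 0, 7 and 6 *Plvap* UMIs, but they were not limited to pericytes, so no level is read from them.

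As a mean over cells, *Cavin3* in *Tspan12* KO pericytes changed sign to 0.04 and the sum was at 0.24. By marker value *Cavin1* in capillary-like ECs of *Tspan12* KO changed sign to -0.06. Genes past a log2 ratio of 1 in *Tspan12* KO numbered 246 higher and 486 lower, with 396 and 876 at a minimum of 20 UMIs and 109 and 198 at 200 UMIs, and 628 and 950 at 200 UMIs in *Ctnnb1* cKO. For these changes the cause was not tested, apart from the gene minimum, which sets how many genes are compared. Pericyte ratios by marker UMIs, without cycling cells and at 2000 UMIs per cell, and some subtype ratios, were not run because a group had under 10 cells or no cluster took the name. No paired analysis was possible because each group had 1 sample.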
